A study of Mus musculus with 11 samples.

Results

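The genes described here are 8 that set how much sterol regulatory element-binding protein (SREBP) reaches the nucleus and how long the LDL receptor stays on the cell surface: Srebf1, Srebf2, Scap, Insig1, Insig2, Mbtps1, Mbtps2 and Mylip. They were chosen by name, as a pathway, with earlier results of these data known. Each had 1 row among the 36788 rows of the expression table. Levels are in CPM (the reads on a gene, scaled to a library total of 1000000). All 8 averaged 0.5 CPM or more, the minimum for testing, which 12733 genes reached. The livers came from 11 female mice labelled wild type, C57BL/6, over 12 weeks of age, which had all been ovariectomized (OVX) and fed a high-fat diet. The FSH group (5 livers, numbered 1, 2, 3, 4 and 6) received follicle-stimulating hormone, and the control group (6 livers, numbered 1 to 6) received saline. The labels describe whole liver digested with papain before total RNA was extracted. The labels number the libraries within a group and do not state pooling, so each library is read here as 1 mouse.

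SREBPs are made as precursors in the membrane of the endoplasmic reticulum. SCAP, which senses cholesterol, escorts them to the Golgi apparatus, where site-1 protease (Mbtps1) and then site-2 protease (Mbtps2) release the part that enters the nucleus and switches on genes of cholesterol and fatty acid synthesis. INSIG1 and INSIG2 hold SCAP and its cargo back when sterols are plentiful. In liver, Srebf1 is best known for its SREBP-1c product, which insulin and the oxysterol receptor LXR raise and which drives fatty acid synthesis, whereas the product of Srebf2 mainly drives cholesterol synthesis. Insig1 is itself an SREBP target, and the liver-specific Insig2a transcript is known to be lowered by insulin and raised by fasting. MYLIP, also called IDOL, is a ubiquitin ligase induced by LXR that sends the LDL receptor to the lysosome.

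Promoter sequence is shown for the 3 genes that changed (Srebf1, Insig2 and Mylip) and for Insig1, because INSIG1 and INSIG2 are close relatives and their transcripts moved apart. RefSeq (GRCm38.p6) gave 13 start sites for the 8 genes, with 1 start for Srebf2, Insig1, Mbtps1, Mbtps2 and Mylip, 2 for Scap and 3 each for Srebf1 and Insig2. Each line runs 5′ to 3′ toward the start site over up to 250 bases, and Insig1 ends where the first annotated exon begins. Capitals mark an E-box (CACGTG), a box of the letters CCAAT, or a GC box (GGGCGG), on either strand. Starts are numbered from the most upstream.
Insig1 (chr5:28071162-28071362, plus strand): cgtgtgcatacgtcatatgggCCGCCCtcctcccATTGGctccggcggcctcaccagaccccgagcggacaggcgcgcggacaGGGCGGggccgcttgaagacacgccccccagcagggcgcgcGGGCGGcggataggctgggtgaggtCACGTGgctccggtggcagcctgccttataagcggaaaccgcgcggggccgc
Insig2 start 1 (chr1:121332590-121332839, minus strand): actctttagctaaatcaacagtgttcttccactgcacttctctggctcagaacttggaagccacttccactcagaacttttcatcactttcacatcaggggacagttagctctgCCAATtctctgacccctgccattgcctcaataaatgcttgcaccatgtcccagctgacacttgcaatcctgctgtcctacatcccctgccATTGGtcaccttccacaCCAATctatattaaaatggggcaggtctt
Srebf1 start 2 (chr11:60220628-60220877, minus strand): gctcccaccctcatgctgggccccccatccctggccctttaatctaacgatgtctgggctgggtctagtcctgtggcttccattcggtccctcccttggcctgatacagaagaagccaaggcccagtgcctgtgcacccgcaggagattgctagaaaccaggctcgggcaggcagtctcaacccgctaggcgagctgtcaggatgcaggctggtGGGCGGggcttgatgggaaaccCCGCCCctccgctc
Mylip (chr13:45389492-45389741, plus strand): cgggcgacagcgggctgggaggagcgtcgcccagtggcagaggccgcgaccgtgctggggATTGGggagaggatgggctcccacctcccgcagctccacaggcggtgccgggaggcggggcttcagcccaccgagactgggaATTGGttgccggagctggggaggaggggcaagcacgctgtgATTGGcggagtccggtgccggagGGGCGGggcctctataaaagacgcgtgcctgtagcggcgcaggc
The Insig1 window held 1 E-box, which begins 101 bases before the start, with 3 GC boxes and 1 CCAAT box. The first Insig2 window held 3 CCAAT boxes and no GC box. The Srebf1 window shown, of start 2, held 2 GC boxes and no CCAAT box. Of the Srebf1 windows not shown, start 1 held a CCAAT box, and start 3 held a CCAAT box and GC boxes. Which start gives the SREBP-1c product was not examined, so the window shown does not stand for the gene. The Mylip window held 3 CCAAT boxes with 1 GC box. Over all 13 windows at full length, an E-box was found at 2 genes (Insig1 and the second Scap start), a CCAAT box at 5 and a GC box at 7. Counted by window, these were 2, 6 and 9 of the 13. Among all genes, 6.02% of the 32817 windows of the same length for all genes held an E-box, 33.8% a CCAAT box and 32.7% a GC box. No member window held the letters TCACNCCAC, a core of the sterol regulatory element present in 1.05% of all windows, nor TAGGTCA, the half-site read by ROR and REV-ERB factors (2.24%), nor the D-box letters TTANGTAA (2.06%). These are matches of letters, found on both strands, and say nothing of binding. Reads were summed over each gene, so the starts of Srebf1, Insig2 and Scap could not be measured apart.

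The libraries held 11410596 to 19909327 reads on genes in the FSH group and 10801891 to 16077442 in the saline group. The lowest count behind any value of a member was 47 reads, for Mbtps2. The first principal component of all tested genes, with 31.0% of the variance, placed the FSH livers between -28.8 and -7.93 and the saline livers between 13.0 and 28.7, with FSH 6 nearest to the saline group and saline 4 farthest from the FSH group. Hepatocyte markers (6 genes) summed to 94437 to 113138 CPM with FSH and 87749 to 114652 CPM with saline, and 0 of them passed limma's test (0 at an unadjusted p under 0.05, and 0 called by edgeR, DESeq2 or voom). Among markers of Kupffer, stellate, endothelial, bile duct, erythroid and lymphoid cells, Lyve1 (lower) and Krt7 (higher) passed it. DESeq2 on the reads also called Clec4f (a Kupffer cell marker) and Sox9 (a bile duct marker), both lower. Of 6 Kupffer cell markers, 2 were lower at an unadjusted p under 0.05 by limma and 3 by edgeR, DESeq2 and voom, where 10.5% of all genes were lower at that threshold by limma and 12.4% to 13.1% by the others. The Kupffer cell markers summed to 93.3 to 257 CPM with FSH and 153 to 303 CPM with saline. Of 6 endothelial markers, 2 were lower at an unadjusted p under 0.05 by all 4 tools, against the same shares of all genes. Their sums were 120 to 179 CPM with FSH and 140 to 166 CPM with saline. Pancreatic acinar markers reached at most 1.21 CPM in sum and adipocyte markers at most 0.525 CPM. The 1 acinar marker abundant enough to test, Cela2a, was higher with FSH at an unadjusted p under 0.05 by all 4 tools and was called by voom alone. Pnlip, Prss2, Lep and Retn were at 0 in all libraries. In bulk tissue, fewer cells of a type and less RNA per cell cannot be told apart, and the part of cell makeup in the results below was not tested.

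Between the FSH and saline livers, 3 of the 8 transcripts differed. The Srebf1 transcript was 2.13-fold higher, Insig2 was 2.71-fold lower and Mylip was 1.47-fold lower, while the values of Srebf2, Scap, Insig1, Mbtps1 and Mbtps2 did not pass the test. Differences were tested on log2(CPM + 0.5) with limma over all genes, with Benjamini-Hochberg adjustment, and a call means an adjusted p under 0.05. Of the 8 genes, 1 was called higher and 2 lower, where 6.19% of all genes tested were called higher and 4.41% lower. With a change of over 2-fold required as well, 1 was called higher (Srebf1) and 1 lower (Insig2), against 0.887% and 0.942% of all genes. Groups were fully apart for 2 of the 8, and for 6.67% of all genes. The median log2 fold change was 0.07 over the 8 and 0.02 over all genes. Each gene was also tested alone by an exact two-sided permutation test over the 462 ways of dividing the libraries into 5 and 6, whose smallest p is 0.00433.

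**Figure D1:**
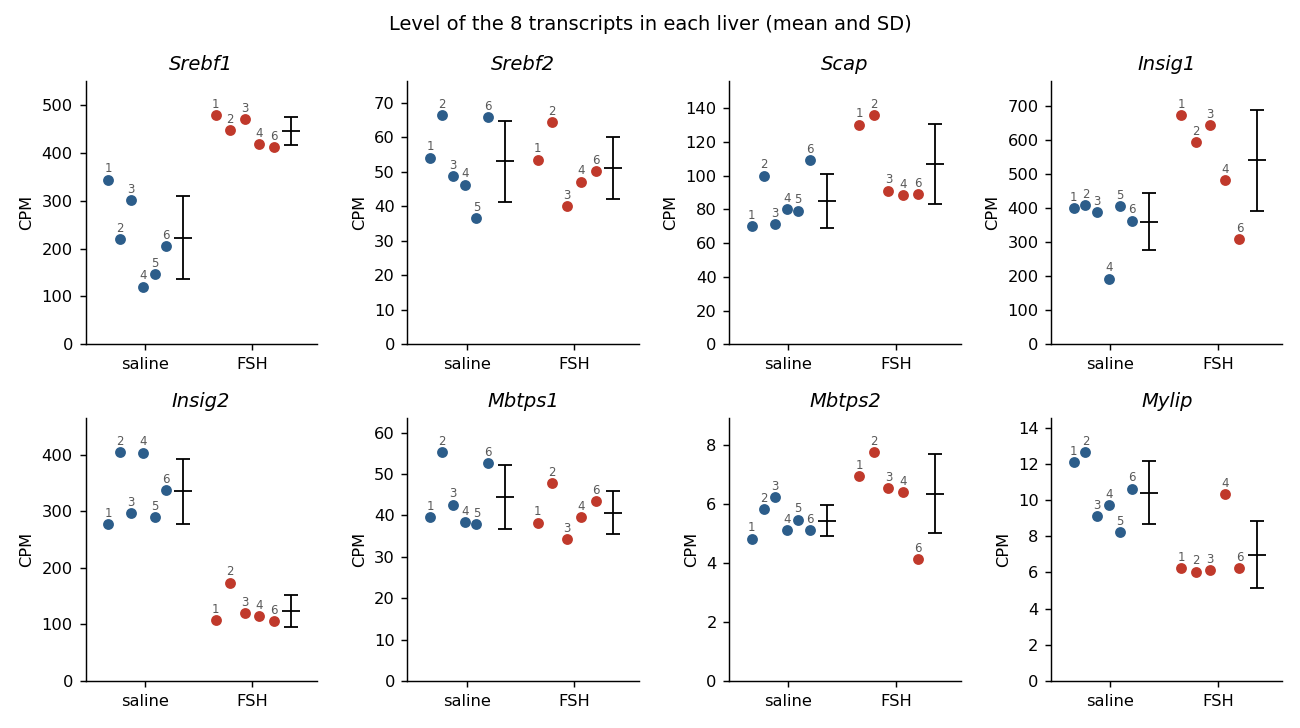
CPM of each gene (vertical axis, from 0) in each saline liver (blue) and FSH liver (red), numbered as in the labels, with the mean and SD as a black bar beside each group. The groups are apart for Srebf1 (413 to 479 CPM with FSH, 121 to 345 with saline) and for Insig2 (106 to 174 with FSH, 278 to 405 with saline) and overlap for the other genes.

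**Figure D2:**
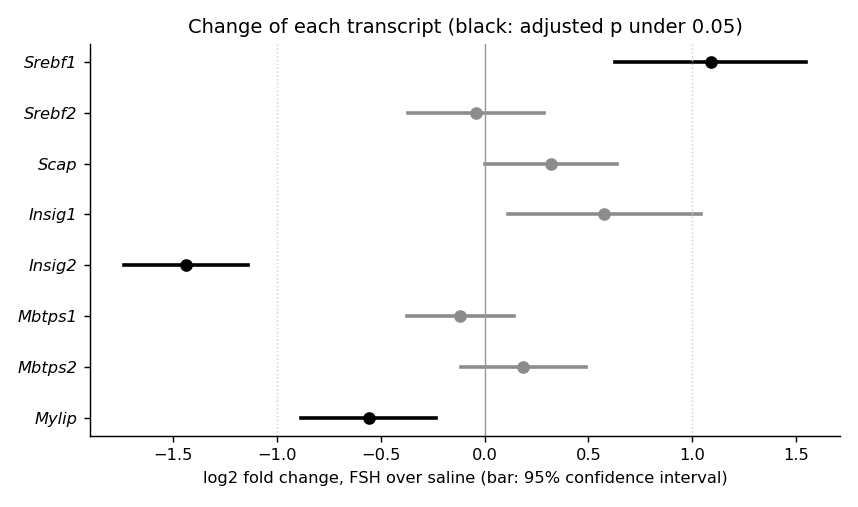
log2 fold change of each gene, FSH over saline (horizontal axis), as a point with its 95% confidence interval as a bar. Black marks the genes past an adjusted p of 0.05, Srebf1 at 1.09, Insig2 at -1.44 and Mylip at -0.56, and dotted lines mark 2-fold.

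Srebf1 (chr11:60199089-60222581, minus strand, GRCm38) encodes the SREBP-1 precursors. It was at 479, 448, 471, 419 and 413 CPM in FSH livers 1, 2, 3, 4 and 6, and at 345, 219.9, 301, 121, 147 and 206 CPM in saline livers 1 to 6. Every FSH liver was above every saline liver, and the saline livers were spread over a wider range, with a coefficient of variation of 38.7% against 6.66%. The log2 fold change was 1.09 ± 0.22 (SE; limma adjusted p = 0.00474; exact permutation p = 0.00433). The call held without any 1 library, but the change fell below 2-fold without saline 4 (log2 fold change 0.93) or saline 5 (0.99). Exons of Srebf1 overlap those of Rai1 on the opposite strand, which averaged 9.03 CPM, and the sources used here do not say whether counting used strand.

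Srebf2 (chr15:82147181-82205379, plus strand), which encodes the SREBP-2 precursor, was at 53.6, 64.4, 40.2, 47.2 and 50.2 CPM with FSH and at 54.1, 66.4, 48.8, 46.3, 36.6 and 66.0 CPM with saline. The ranges lay over each other, and the log2 fold change was -0.04 (95% confidence interval -0.37 to 0.29; limma adjusted p = 0.910). Per kilobase of exon, a scale on which genes can be compared, the Srebf1 level was 11.2 times the Srebf2 level in the FSH livers and 5.13 times in the saline livers (geometric means). That log2 ratio was higher with FSH by 1.13 (95% confidence interval 0.53 to 1.73; exact permutation p = 0.00433, adjusted p = 0.0108 over the 5 ratios tested), and the groups did not overlap. Srebf2 supplied 8.25% ± 1.39 (SD, n = 5) of the summed SREBP level with FSH and 16.8% ± 4.93 (SD, n = 6) with saline. The sum itself was 86.3 ± 5.38 against 47.0 ± 15.9 CPM per kilobase, a log2 difference of 0.95 (95% confidence interval 0.42 to 1.48). That sum was chosen for comparison after the values were seen.

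Scap (chr9:110333288-110384950, plus strand), the cholesterol-sensing escort, was at 130.4, 136, 91.1, 88.5 and 89.1 CPM with FSH and at 69.9, 100.1, 71.3, 80.4, 79.3 and 109 CPM with saline. FSH 1 and FSH 2 stood above all other livers, and the other FSH livers lay within the saline range. The log2 fold change of 0.32 ± 0.15 (SE) did not pass the test (limma adjusted p = 0.192; exact permutation p = 0.0952), though without saline 6 the exact permutation p was 0.0476. The log2 ratio of the summed SREBP level to Scap was 2.61 with FSH and 1.99 with saline, a difference of 0.62 (95% confidence interval -0.05 to 1.30; exact permutation p, adjusted over 5, 0.0920) that did not pass either. Without saline 1 it was 0.80, with an adjusted exact permutation p of 0.0397.

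Insig1 (chr5:28071363-28078662, plus strand) encodes an anchor that keeps SCAP in the endoplasmic reticulum. It was at 672, 594, 644, 482 and 308 CPM with FSH and at 399.8, 408, 388, 192, 405 and 363 CPM with saline. FSH 1 to 4 were above every saline liver, FSH 6 lay inside the saline range and saline 4 was far below the rest of its group. The log2 fold change of 0.58 ± 0.22 (SE, 95% confidence interval 0.11 to 1.04) did not pass the test (limma adjusted p = 0.109; exact permutation p = 0.0519). Without FSH 6 it was 0.77 and passed (limma adjusted p = 0.0191). Without saline 4 it was 0.41 and did not pass (limma adjusted p = 0.167).

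Insig2 (chr1:121304353-121332589, minus strand) encodes the second anchor. It was at 107, 174, 119.6, 114 and 106 CPM with FSH and at 278, 405, 296, 404, 289.9 and 337 CPM with saline. The highest FSH liver, FSH 2, was at 174 CPM and the lowest saline liver, saline 1, at 278 CPM, so a wide gap lay between the groups. The log2 fold change was -1.44 ± 0.14 (SE; limma adjusted p = 2.07e-05; exact permutation p = 0.00433), which placed Insig2 at rank 26 of the 12733 genes by p. It stayed between -1.56 and -1.38 whichever 1 library was left out.

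Side by side, Insig2 gave a smaller share of the INSIG total with FSH, and no change of the total itself was detected. The Insig1 to Insig2 ratio per kilobase was 4.79 in the FSH livers and 1.18 in the saline livers (geometric means), a log2 difference of 2.02 (95% confidence interval 1.28 to 2.76; exact permutation p = 0.00433, adjusted p = 0.0108 over the 5 ratios). In single livers the ratio was 7.05, 3.83, 6.04, 4.75 and 3.26 with FSH. With saline it was 1.62, 1.13, 1.47, 0.54 and 1.57 in livers 1 to 5 and 1.21 in liver 6, so that saline 4 was the only liver with more Insig2 than Insig1. Insig2 made up 17.6% ± 4.55 (SD, range 12.4% to 23.5%) of the summed INSIG level with FSH and 45.8% ± 10.1 (SD, range 38.2% to 65.1%) with saline. The sum was 210.2 ± 50.9 CPM per kilobase with FSH and 213 ± 22.2 with saline, a log2 difference of -0.05 whose 95% confidence interval ran from -0.45 to 0.35 (exact permutation p = 0.801), a comparison also chosen after the values were seen. The interval leaves room for a change of the sum in either direction. Relative to Scap, the INSIG sum was lower with FSH by 0.37 on the log2 scale, and this did not pass the test (95% confidence interval of the difference -0.76 to 0.01; adjusted exact permutation p = 0.0866). Without FSH 3 the difference was -0.49, with an adjusted exact permutation p of 0.0317.

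**Figure D3:**
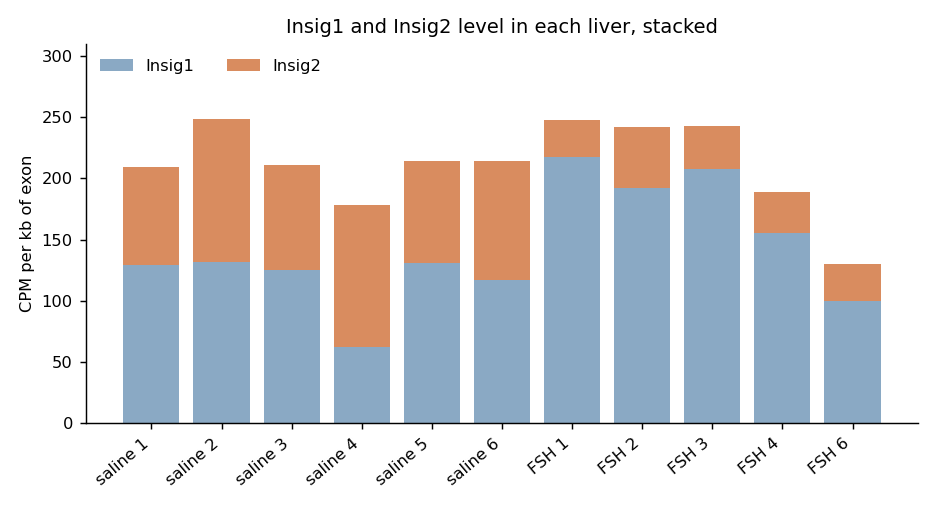
Insig1 (blue) and Insig2 (orange) level in each liver, stacked, in CPM per kilobase of exon (vertical axis, from 0). Insig2 is 12.4% to 23.5% of the bar in the FSH livers and 38.2% to 65.1% in the saline livers, while the bar heights of the groups overlap, with FSH 6 the lowest at 130.1.

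Neither Golgi protease passed the test. Mbtps1 (chr8:119508156-119558735, minus strand), site-1 protease, was at 38.2, 47.7, 34.3, 39.7 and 43.5 CPM with FSH and at 39.5, 55.3, 42.6, 38.3, 38.0 and 52.7 CPM with saline. Its log2 fold change was -0.12 (95% confidence interval -0.37 to 0.14; limma adjusted p = 0.605). Mbtps2 (chrX:157535371-157598715, minus strand), site-2 protease, was at 6.93, 7.74, 6.51, 6.39 and 4.12 CPM with FSH and at 4.82, 5.82, 6.21, 5.10, 5.46 and 5.10 CPM with saline. FSH 6 was the lowest of all livers for this gene and the other FSH livers were above every saline liver. By the exact permutation test it did not pass (p = 0.212), and without FSH 6 it did (exact p = 0.00952). The log2 fold change over all livers was 0.19 (95% confidence interval -0.11 to 0.49, limma adjusted p = 0.457). Without FSH 6 it was 0.32 and did not pass limma's test (adjusted p = 0.0771). The ratio of Mbtps1 to Mbtps2 per kilobase was lower with FSH by 0.32 on the log2 scale (adjusted exact permutation p = 0.139), and by 0.49 without FSH 6 (adjusted exact permutation p = 0.0159).

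Mylip (chr13:45389742-45412022, plus strand), the ligase that marks the LDL receptor for degradation, was at 6.23, 6.05, 6.12, 10.3 and 6.22 CPM with FSH and at 12.1, 12.7, 9.09, 9.74, 8.24 and 10.6 CPM with saline. FSH 1, 2, 3 and 6 were below every saline liver, and FSH 4 lay inside the saline range. The log2 fold change was -0.56 ± 0.15 (SE; limma adjusted p = 0.0304; exact permutation p = 0.0173). The call rested on most of the libraries: leaving out FSH 1, 2, 3 or 6 or saline 1, 2 or 6 gave log2 fold changes between -0.55 and -0.50 and adjusted p between 0.0523 and 0.0819 (limma).

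Per kilobase of exon, the order of the levels with FSH was Insig1 (174.5), Srebf1 (79.2), Insig2 (35.7), Scap (14.4), Srebf2 (7.11), Mbtps1 (3.86), Mylip (2.16) and Mbtps2 (0.627 CPM per kilobase), and the ranges of all neighbours were apart. With saline, Insig2 (96.4) stood next to Insig1 (116), and the pair overlapped, Insig1 being higher in 5 of 6 livers. Srebf1 (39.6) followed, and then Scap (11.4), Srebf2 (7.38), Mbtps1 (4.21), Mylip (3.22) and Mbtps2 (0.536 CPM per kilobase). The ranges of Srebf2 and Mbtps1, and of Mbtps1 and Mylip, also overlapped in the saline livers, though the first of each pair was higher in 6 of 6 livers.

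After each group's mean was taken off, the Pearson correlation of log2 levels over the 11 livers was highest for Srebf2 with Mbtps1 (0.87), Srebf2 with Scap (0.69) and Insig1 with Mbtps2 (0.67), and lowest for Srebf1 with Insig2 (-0.35). Insig1 and Insig2 were at -0.11. Among all other named genes, the patterns most like Insig1 were those of Rnf103, Idh1 and Acsl3 (0.96, 0.96 and 0.95), and those like Srebf1 included Utp20 and Mybbp1a (0.97 and 0.92). For Insig2 they were Fam208a, Sppl2b and Tulp3 (0.94, 0.91 and 0.91). For Mylip, Oaz2, Urad and Utp4 came first, each at 0.90. For Srebf2 they were Nrd1, Galc and Anxa11, for Scap Exph5, Klhl24 and Zbtb22, for Mbtps1 Kif13b, Pik3ap1 and Pde4dip, and for Mbtps2 Mnt, Gtf2a1 and Slc25a17, at 0.92 to 0.99. These are descriptions over points that share library depth and tissue, picked as the highest among all genes tested.

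Of 20 genes whose products carry, hold or degrade the SCAP, INSIG and SREBP proteins, 2 were called higher and 2 lower. Of all genes, 6.19% were called higher and 4.41% lower. At an unadjusted p under 0.05 by limma, 4 of the 20 were higher and 4 lower, against 14.6% and 10.5% of all genes. Groups were fully apart for 4 of the 20, and for 6.67% of all genes. Over the 20, the median log2 fold change was -0.04. The called genes are given as single values and not as a result of the list. Rnf145, a ubiquitin ligase that acts on SCAP, was at 36.6 ± 6.22 CPM with FSH and 16.3 ± 3.42 CPM with saline (log2 fold change 1.16; limma adjusted p = 0.000402). Ube2g2, a ubiquitin-conjugating enzyme of degradation from the endoplasmic reticulum, was lower (-0.94; limma adjusted p = 0.00206). Of the COPII coat that buds vesicles toward the Golgi apparatus, Sar1b was higher (0.48; limma adjusted p = 0.00508) and Sec24d lower (-0.57; limma adjusted p = 0.00973). The remaining 16, including Rnf139, a ubiquitin ligase of the endoplasmic reticulum, did not pass. Among genes of 7 other proteins cut by the Golgi proteases, 0 were called higher and 2 lower, against 6.19% and 4.41% of all genes. These were Creb3l2 (-0.62, limma adjusted p = 0.0101) and Atf6b (-0.53, limma adjusted p = 0.0359), and the stress sensor Atf6 did not pass. Of the 7, 6 had a log2 fold change below 0, with a median of -0.20. By limma 3 were lower at an unadjusted p under 0.05, against 10.5% of all genes.

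Genes known as SREBP targets moved one way. The counts below stand against 6.19% called higher and 4.41% called lower among all genes. Of 21 genes of cholesterol synthesis and its supply, 19 were called higher and 0 lower, with a median log2 fold change of 1.17 against 0.02 for all genes. Pmvk, a mevalonate pathway kinase, rose from 58.9 ± 11.2 to 153 ± 38.2 CPM (log2 fold change 1.35). Lss, which closes the sterol rings, rose from 42.0 ± 13.2 to 132 ± 46.3 CPM (1.62), and Acat2 (1.30) and Ebp (0.52) rose as well. Of 16 genes of fatty acid synthesis, 13 were called higher and 0 lower, with a median of 1.58. In both lists 0 genes were lower at an unadjusted p under 0.05, and edgeR, DESeq2 and voom called 0 lower. Elovl6, a fatty acid elongase, rose from 112 ± 60.2 to 683 ± 272 CPM (2.72). Acss2, which makes acetyl-CoA from acetate, rose from 168 ± 69.3 to 764 ± 262 CPM (2.19), with Me1 (1.62) and the citrate carrier Slc25a1 (0.70). The limma adjusted p of these named genes lay between 0.000153 and 0.00146. The lists were written with earlier results of these data known, so their direction is not independent evidence.

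Set beside the targets liver by liver, Insig1 followed the same order at the low end. As the mean log2 level of the list relative to all 11 livers, the cholesterol synthesis genes were lowest in FSH 6 among FSH livers (-0.21, the others 0.67 to 0.99) and in saline 4 among saline livers (-1.23, the others -0.49 to -0.10). The fatty acid synthesis genes were also lowest in FSH 6 (0.08) and saline 4 (-1.55). Those livers had the lowest Insig1 of their groups (308 and 192 CPM). Srebf1 was lowest in the same livers, at 413 CPM in FSH 6 (next to 419 in FSH 4) and 121 CPM in saline 4. Insig2 was also lowest in FSH 6 (106 CPM, next to 107 in FSH 1), but in saline 4, at 404 CPM, it was close to the highest of its group. With both livers left out, an alternative added after the values were seen, the log2 fold change was -1.33 for Insig2, which passed the test (limma adjusted p = 0.000187), and -0.54 for Mylip, which did not (0.0695). For Insig1 and Srebf1 this fit is given below only as a check of the settings, because these livers had the lowest values of both genes in their groups.

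**Figure D4:**
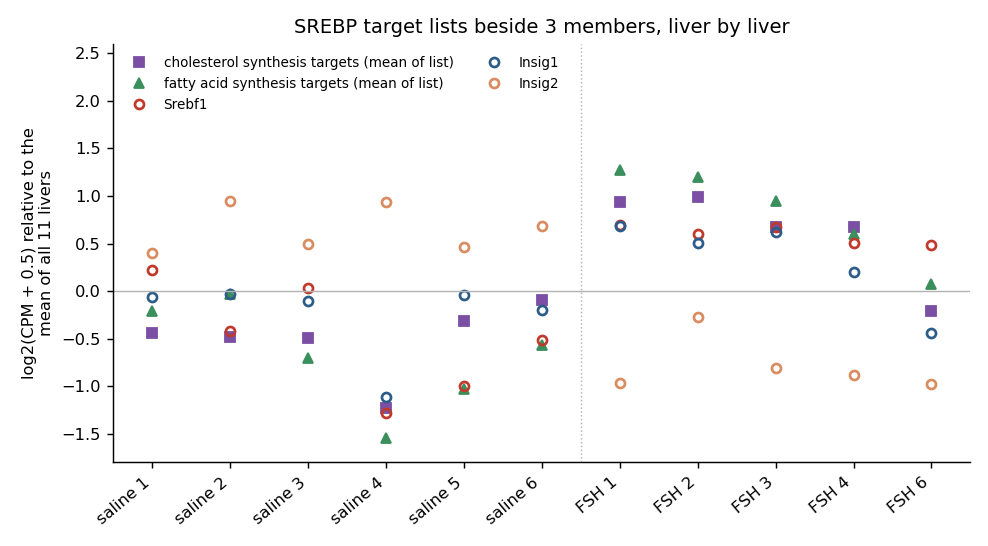
Mean log2 level of the cholesterol (squares) and fatty acid (triangles) synthesis lists and log2 level of Srebf1, Insig1 and Insig2 (open circles) in each liver, relative to the mean of all 11 livers. Insig1, Srebf1 and both lists are lowest in FSH 6 within the FSH group and in saline 4 within the saline group, and Insig2 lies above 0 in every saline liver and below 0 in every FSH liver.

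LXR is known to raise both Srebf1 and Mylip, and here these genes moved in opposite directions. Whether LXR raises Mylip in mouse liver was not tested here. Of 9 genes for LXR, its RXR partners and further LXR targets, 3 were called higher and 0 lower (4 and 0 at an unadjusted p under 0.05; 3 and 0 called by edgeR, DESeq2 and voom on the reads), with a median of -0.04. Of all genes, 6.19% were called higher and 4.41% lower, and 14.6% and 10.5% had an unadjusted p under 0.05. The sterol exporters Abcg5 (0.77; limma adjusted p = 0.00155) and Abcg8 (0.84; limma adjusted p = 0.00559) and the phospholipid-remodelling enzyme Lpcat3 (0.56; limma adjusted p = 0.00867) were higher. The LXR gene itself, Nr1h3, was at 106 ± 11.8 CPM with FSH and 121 ± 10.1 with saline and was not called. The targets Abca1 (0.33) and Abcg1 (-0.11) were not called either. The median of -0.04 covers receptors and targets together, and the LXR and RXR genes lay between -0.19 and -0.04. Of 10 genes for MYLIP partners and for sorting of the LDL receptor, 0 were called by limma, and 2 had an unadjusted p under 0.05, a share no higher than the 25.1% of all genes. On the recovered reads, edgeR and voom called 1, the endocytic adaptor Dab2 (higher; 8.55 ± 1.56 against 6.25 ± 0.911 CPM), and DESeq2 also called Ccdc22. The smallest limma p belonged to Ccdc22, a subunit of a sorting complex, at 14.9 ± 1.49 CPM with FSH and 18.8 ± 2.44 with saline (log2 fold change -0.32; limma adjusted p = 0.0706).

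Clock genes moved with treatment as well. Of 17 tested, 6 were called higher and 5 lower, against 6.19% and 4.41% of all genes. Dbp, a clock output factor, was at 83.0 ± 34.8 CPM with FSH and 4.30 ± 0.660 with saline (log2 fold change 4.02; limma adjusted p = 1.15e-07). Per3 was higher (2.61) and Arntl, which encodes BMAL1, lower (-2.33). Npas2 averaged 5.91 CPM with saline and 0.0201 CPM with FSH, too few reads for a fold. The hour at which livers were taken is not given in the sources used here, and the part of a difference in clock phase in the changes of Srebf1, Insig2 and Mylip was not tested.

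**Figure D5:**
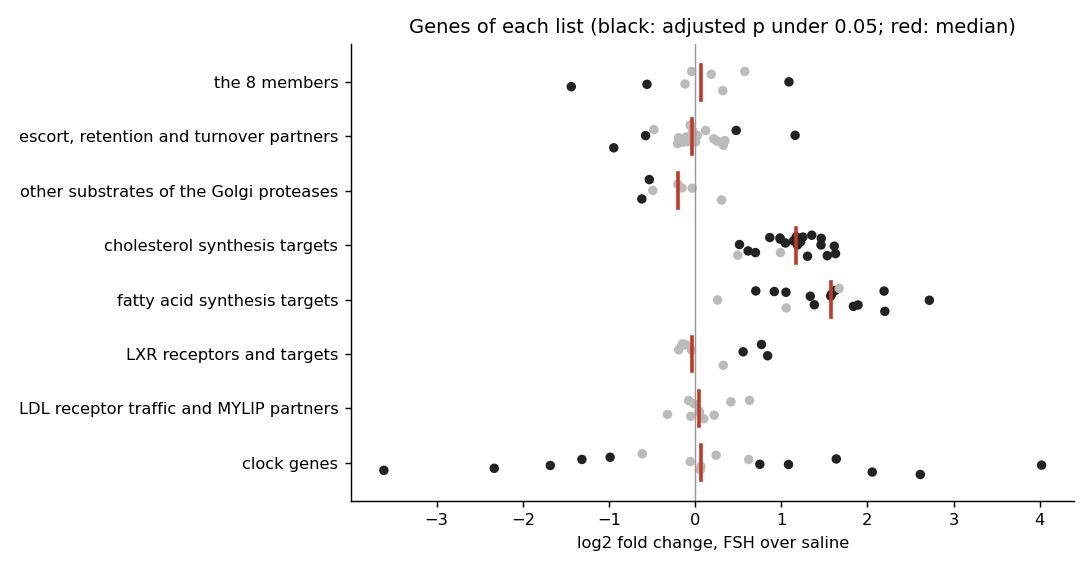
log2 fold change, FSH over saline (horizontal axis), of the 8 genes and of every tested gene of 7 lists, 1 point a gene, black where the adjusted p is under 0.05, with the median of the list as a red line. The medians are 1.17 for cholesterol and 1.58 for fatty acid synthesis and between -0.20 and 0.07 for the others; the lowest clock point is Npas2, whose fitted value depends on the pseudocount.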

How the data were processed

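Liver RNA was sequenced in 5 FSH and 6 saline libraries. Per the labels, reads were trimmed with Trim Galore 0.3.3, checked with FastQC 0.11.2, aligned with STAR to mm10 and counted with RSEM. Values deposited by the authors are CPM, with no scaling between libraries. All of them (100% within 0.01 of a whole number) were whole multiples of 1 read, so the reads were recovered. RSEM's estimated counts need not be whole, so which counter made the table is unclear. The groups of libraries came from the labels.

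Genes averaging 0.5 CPM or more were kept. limma 3.58.1 (R 4.3.3; eBayes with trend, Benjamini-Hochberg) was run on log2(CPM + 0.5) and called 1350 genes. Fold changes on this scale understate the change of low genes. As an alternative, edgeR 4.0.16 (quasi-likelihood) on the recovered reads called 1435 genes. DESeq2 1.42.0, other pseudocounts, filters and scalings, a replicate block and leaving out each library were further alternatives. Ratios and single genes were tested by exact permutation. Levels per kilobase used the exon length of GENCODE M21. Scripts were tested on simulated data with changed genes of medium level only. The sources do not say whether replicates were separate litters or days, so p-values measure the spread between these samples.

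Genes named are all 8 members, up to 4 of each list with the smallest p among those called (otherwise 1), and the 3 most like each member. Other genes named were singled out after their values were seen. Members and lists were chosen with earlier results of these data known. Some results are not reported here.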

Additional observations from a re-analysis of the deposited data

Results flagged for a closer look

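In 26 groups of 5 or 6 livers (each gene and each ratio in each treatment), 5 had a liver farther from its neighbour than Dixon's 95% critical value allows, where chance gives about 1 in 20 groups. Insig1 in saline 4 was at 192 CPM, with the other saline livers between 363 and 408. The log2 ratio of Insig1 to Insig2 in the same liver was -0.90, with the others between 0.18 and 0.69. Insig2 in FSH 2 was at 174 CPM, with the other FSH livers between 106 and 119.6, and it remained below every saline liver. Mylip in FSH 4 was at 10.3 CPM, with the others between 6.05 and 6.23. The log2 ratio of Mbtps1 to Mbtps2 in FSH 6 was 3.34, with the others between 2.34 and 2.57.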

How the results depend on the processing

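Srebf1 and Insig2 kept their direction and their call in every fit run, with log2 fold changes of 0.93 to 1.23 and -1.56 to -1.33. The number of members called stayed between 2 and 4 (main 3). The number called with over 2-fold fell from 2 to 1, because Srebf1 dropped just below 2-fold, with the replicate block (log2 fold change 0.99, a fit that leaves out saline 5, which has no partner, and equals the value without saline 5 alone), with edgeR and with DESeq2 on the reads (0.98 each), and with FSH 6 and saline 4 left out together (0.96, chosen after the data were seen, with the lowest Srebf1 livers of both groups removed), and it was 1 to 2 when each library was left out in turn. Over all genes, 804 to 1659 were called with each library left out (804 without FSH 1, main 1350) and 1013 to 1892 under the other settings. Mylip lost its call with no filter on low values (adjusted p = 0.0606), where more genes were tested. Insig1 gained a call with array weights (0.0442), with DESeq2 (0.0413) and without FSH 6 (0.0191). It also did so with FSH 6 and saline 4 left out together (limma adjusted p = 0.00297), which removes its lowest liver of each group. The cause was not tested. By single-gene exact permutation, 3 to 5 members passed with each library left out, 5 without FSH 6.

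With each library left out, the log2 difference of Insig1 to Insig2 was 1.79 to 2.16, of Srebf1 to Srebf2 1.01 to 1.26, of the INSIG sum to Scap -0.49 to -0.27, of Mbtps1 to Mbtps2 -0.49 to -0.24 and of the SREBP sum to Scap 0.50 to 0.80, and 2 to 3 of the 5 ratios passed. Livers with the same number deviated together for numbers 2 (correlation 0.36) and 4 (0.14) and not for 1, 3 and 6 (-0.07 to 0.07), so the numbers were not read as pairs. With the replicate block over 5 pairs, where the exact test cannot go below 0.0625, the differences were 2.10 for Insig1 to Insig2 and 1.13 for Srebf1 to Srebf2 (adjusted exact p = 0.104 each), so 0 ratios passed, and 3 members were called. The lowest members, Mbtps2 and Mylip, rest on 47 to 174 reads in a library, which limits what can be seen in them.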
